A study of Mus musculus with 6 samples.

Results

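The p53 pathway target genes are 32 mouse genes that the transcription factor p53 induces, together with p53 itself, its regulators and some close relatives of its targets. They were picked by symbol from a table of gene counts, in which each of the 32 names matched 1 of 43346 genes. The rule is a list of names and uses no expression value, but the list was drawn up with earlier results of these data known. Of these 43346 genes, 17589 had enough counts to be tested, and all 32 members were among them.

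Expression was measured by RNA-seq in primary fibroblasts that had been grown out of ear tissue of adult C57BL6/J females and used between passages 3 and 8. The 3 control libraries came from sham-irradiated cells, and the 3 senescent libraries from cells given 20 Gy of X-rays and then kept for 21 days in culture. Cells of both groups were grown at 3% oxygen and had received 100 nM dexamethasone, a synthetic glucocorticoid, for 2 h before collection 12 h later, so no comparison here is free of the hormone. The question was how the RNA of cells in the senescent state, a lasting arrest of division entered after damage, differs from that of the controls. The radiation and the 21 further days are given for the senescent cells only. Effects of radiation, time in culture and arrest therefore cannot be told apart here. The sources do not say whether the 3 libraries of a group came from separate mice or cultures, so the p-values measure only the spread between these samples, which may be technical.

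p53, encoded by Trp53, is kept scarce in resting cells because the ubiquitin ligase Mdm2 marks it for destruction. DNA damage frees the protein, which then binds paired copies of a short DNA motif and raises transcription of genes that halt the cell cycle, repair DNA, tune metabolism or start cell death. Mdm2 is itself one of those genes, so the pathway feeds back on itself, and because p53 is controlled mainly as a protein its RNA need not move when its targets do.

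The RefSeq promoter windows of GRCm38.p6, the assembly behind mm10, were searched for the p53 motif on both strands. Each window runs from 250 bases before a transcription start to 50 bases after it. A p53 half-site is a 10-base word made of 3 purines, C, A or T, A or T, G and 3 pyrimidines, and a tandem site is 2 such words without a gap. Windows were listed for 27 members (34 windows), and the members without one were Trp53inp1, Rrm2b, Tnfaip8, Ptp4a3 and Zmat3. An exact half-site lay in 12 of the 34 member windows (35.3%), against 8.36% of all 32851 windows. Those 12 windows belonged to 11 members (Aen, Ccng1, Ei24, Gadd45a, Gtse1, Mdm2, Polk, Rps27l, Sesn1, Trp53 and Wrap53), and they held 11 half-sites at distinct positions, since Trp53 and Wrap53 are divergent neighbours that share one and the windows of Aen share another. A tandem site with at most 2 mismatches in 20 bases lay in 3 member windows (8.82%), those of Ccng1, Gtse1 and Rps27l, against 0.326% of all windows. No member window held an exact tandem site with a spacer of 0 to 13 bases, which 0.0731% of all windows did. The members were listed for their place in the p53 pathway, and some of their windows overlap. A higher share of p53 words than in all windows is therefore no independent evidence and is given as a description. The windows of Ccng1, Gtse1 and Rps27l are printed because they hold the tandem sites, and those of Mdm2 and Gadd45a because these genes were among the members with the highest fold changes. Capitals mark the half-site, or the whole tandem site with its 1 mismatch, each window being read 5′ to 3′ on the strand of its gene.
Ccng1: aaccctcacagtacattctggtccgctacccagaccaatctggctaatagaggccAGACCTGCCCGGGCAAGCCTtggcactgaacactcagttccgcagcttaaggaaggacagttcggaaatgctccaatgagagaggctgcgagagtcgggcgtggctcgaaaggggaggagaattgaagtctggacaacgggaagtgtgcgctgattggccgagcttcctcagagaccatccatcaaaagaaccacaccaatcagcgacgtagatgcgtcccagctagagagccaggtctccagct
Gtse1: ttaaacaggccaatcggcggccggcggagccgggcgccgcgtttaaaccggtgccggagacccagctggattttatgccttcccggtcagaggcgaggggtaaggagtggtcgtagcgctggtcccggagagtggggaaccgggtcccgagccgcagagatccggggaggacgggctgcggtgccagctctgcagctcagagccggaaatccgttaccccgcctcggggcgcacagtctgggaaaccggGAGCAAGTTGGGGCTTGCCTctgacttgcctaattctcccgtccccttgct
Rps27l: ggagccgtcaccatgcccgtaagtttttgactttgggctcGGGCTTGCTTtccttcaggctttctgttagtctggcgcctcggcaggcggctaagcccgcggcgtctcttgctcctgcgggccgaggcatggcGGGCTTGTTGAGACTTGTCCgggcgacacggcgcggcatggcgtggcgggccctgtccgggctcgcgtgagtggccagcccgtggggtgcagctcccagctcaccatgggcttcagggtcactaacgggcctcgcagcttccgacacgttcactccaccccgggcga
Mdm2: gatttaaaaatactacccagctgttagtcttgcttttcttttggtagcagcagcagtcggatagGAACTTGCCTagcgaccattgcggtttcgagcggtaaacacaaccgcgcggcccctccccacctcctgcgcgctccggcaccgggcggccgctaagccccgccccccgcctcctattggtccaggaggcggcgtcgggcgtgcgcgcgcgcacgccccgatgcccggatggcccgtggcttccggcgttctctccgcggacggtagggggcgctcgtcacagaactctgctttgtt
Gadd45a: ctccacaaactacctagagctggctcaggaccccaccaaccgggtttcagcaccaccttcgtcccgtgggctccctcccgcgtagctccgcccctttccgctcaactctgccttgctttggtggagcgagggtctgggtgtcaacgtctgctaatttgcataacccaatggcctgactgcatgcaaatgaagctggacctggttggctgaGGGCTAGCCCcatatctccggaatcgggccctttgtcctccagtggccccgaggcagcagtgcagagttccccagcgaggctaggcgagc

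Counted from 1 at the 5′ end of the window, the tandem site took up bases 56 to 75 in Ccng1 (chr11:40755237-40755536, minus strand), 250 to 269 in Gtse1 (chr15:85859696-85859995, plus strand) and 134 to 153 in Rps27l (chr9:66946163-66946462, plus strand), and Rps27l held a further half-site at bases 41 to 50. The half-site stood at bases 65 to 74 in Mdm2 (chr10:117710709-117711008, minus strand) and at bases 211 to 220 in Gadd45a (chr6:67037358-67037657, minus strand). The 3 genes with a tandem site did not move alike, as the values given with each gene below show: Ccng1 and Rps27l were higher in senescent cells and Gtse1 was lower. Of the 17 members with a window that were higher in senescent cells, 7 held a half-site, beside 11 of all 27 members with a window. Gtse1, Sesn1 and Wrap53, which were lower, and Trp53, which was not called, held one too. A palindromic E-box, CACGTG, was found in 5 of the 34 member windows (14.7%; all windows 7.15%), and an AP-1 word, TGACTCA or its reverse complement TGAGTCA, in 2 of them (5.88%; all windows 5.2%). A match of letters is a description of the window and does not show that a factor binds there, and many p53 sites of target genes lie in introns outside such windows. Among the windows with a half-site, those of Rps27l, Polk and Sesn1 lie wholly inside the gene as listed. Their sites are thus not upstream of the whole gene.

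Library totals ran from 50288454 to 82229553 counts, so that 3 counts correspond to between 0.0355 and 0.0613 CPM (a gene's counts scaled to a common library total), far below the lowest member. All CPM values are scaled by TMM, edgeR's correction for library composition, whose factors ran from 0.968 to 1.03. Senescent replicate 3 stood apart from its group. The median squared difference between libraries was 18.8 and 24.6 times that expected from counting noise for its pairs, against 2.24 for senescent replicates 1 and 2. Control replicate 1 stood apart to a smaller degree, with 5.02 and 4.53 for its pairs against 1.78 for control replicates 2 and 3. Of 11 fibroblast markers, all measured, 3 were higher, 6 lower and Fn1 and Pdgfrb not called, with Col1a1 at log2 -2.54 and Dcn at log2 3.50. Their summed levels were 65392 to 67372 CPM in control and 48992 to 54360 CPM in senescent libraries, most of them from Fn1, which went from 45655 ± 414 to 43858 ± 2275 CPM (SD, n = 3 each). All 12 proliferation markers were lower in senescent cells (2183 to 2228 against 128 to 132 CPM in sum), Mki67 among them (log2 -5.94). All 8 cartilage cell markers were also lower (4998 to 5560 against 359 to 445 CPM). Sums for macrophages (5.69 to 6.46 against 14.1 to 16.6 CPM), keratinocytes (3.23 to 4.13 against 19.2 to 20.1 CPM, mostly Ivl, at 0 counts in control libraries and 13.4, 14.1 and 14.5 CPM in senescent ones, with Krt5 and Krt10 not called) and endothelium (0.777 to 0.837 against 4.51 to 5.45 CPM, with Tie1 at or under 3 counts) were higher but small. Muscle markers summed to 15.5 to 20.9 and 15.4 to 27.9 CPM, and markers of Schwann cells and melanocytes to 44.5 to 47.8 and 37.1 to 40.3 CPM, with Tyr and Dct at or under 3 counts. In bulk RNA, fewer cells of a type and less RNA per cell cannot be told apart, and the part these lists play in the members' values was not tested.

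As a group the members were more abundant in senescent cells. Their summed level was 2088, 2073 and 2084 CPM in the control libraries and 3673, 3716 and 3953 CPM in the senescent ones, or 0.201% to 0.204% of counts against 0.378% to 0.406%. The sums did not overlap, and 31.2% of the rise was due to Ccng1 alone. Without Ccng1 the sums were 1885 to 1894 CPM and 3015 to 3112 CPM.

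In edgeR's quasi-likelihood test, with p-values adjusted by Benjamini and Hochberg's method over every gene tested, 21 of the 32 members were higher in senescent cells (65.6%), 8 were lower (25%) and 3 did not pass adjusted p = 0.05. Over all 17589 genes 36.2% were higher, 34.1% lower and 70.3% called in either direction, so that a call in itself says little here. Among the 9972 genes at least as abundant as the lowest member, 32.5% were higher and 40.6% lower, 73.1% in either direction. A change of more than 2-fold was called for 11 members upward (34.4%) and 3 downward (9.38%). The same rule called 17.8% of all genes upward and 12.3% downward, and 7.18% and 11% of the genes at least as abundant as the lowest member. The median log2 fold change was 0.49 over the members and 0.01 over all genes. Control and senescent libraries did not overlap for 28 members, 20 with the senescent libraries above and 8 with them below, while 75.3% of all genes did not overlap (38.4% above, 37% below).

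**Figure D1:**
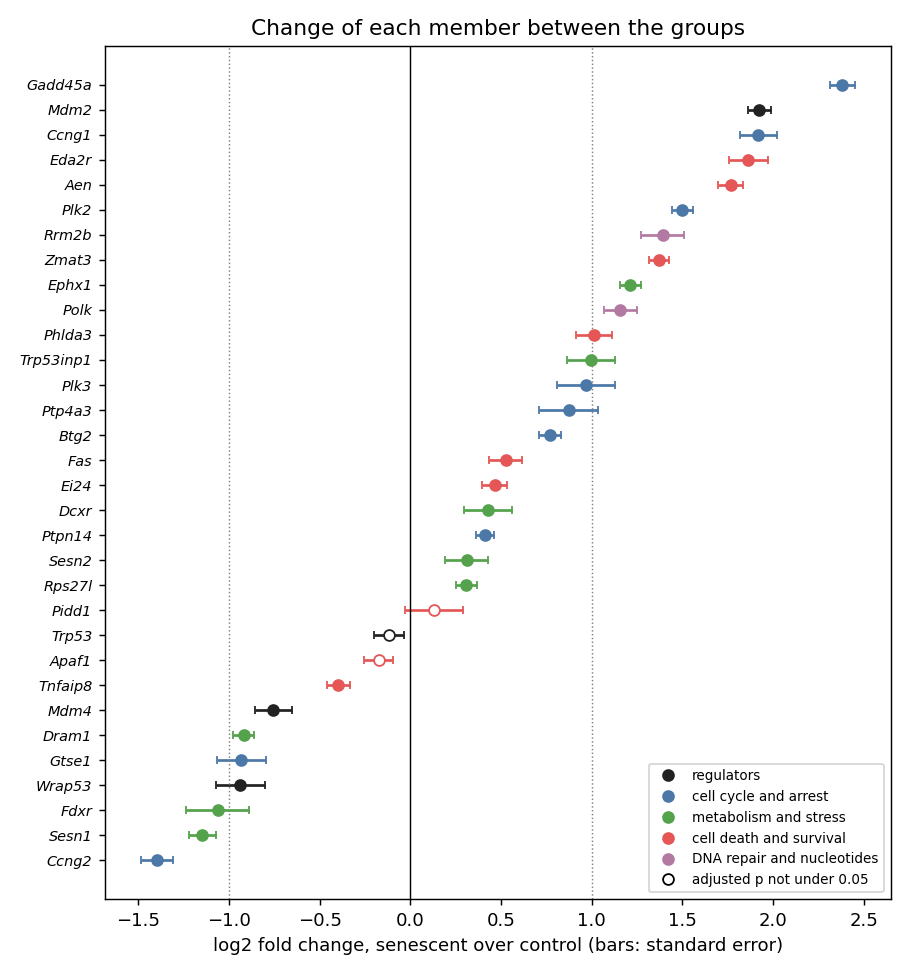
Log2 fold change of senescent over control cells for each of the 32 members, sorted by size, with bars of 1 standard error from edgeR's fit, colours for the role groups, open circles for members not called at adjusted p = 0.05 and dotted lines at 2-fold. Gadd45a (2.38), Mdm2 and Ccng1 (both 1.92) lie highest, and Ccng2 (-1.40), Sesn1 (-1.15) and Fdxr (-1.06) lowest.

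Of the 4 regulators 1 rose, 2 fell and 1 did not pass the test, beside 36.2% higher and 34.1% lower over all genes. Trp53 (chr11:69580359-69591873) had 140.1, 152 and 153 CPM in the control libraries and 142, 147 and 122 CPM in the senescent ones. These values overlapped, and the difference did not pass edgeR's test (log2 -0.12, SE 0.08, adjusted p = 0.236), and with a GC term in each library, a setting chosen after the data were seen, it came to 0.0027. Mdm2 (chr10:117688888-117710758), which ubiquitinates p53 and is induced by it, had 86.2, 82.1 and 82.8 CPM in control and 306, 307 and 339 CPM in senescent libraries. Every senescent library lay above every control, a 3.79-fold rise (edgeR, log2 1.92, SE 0.06, adjusted p = 1.35e-07). Mdm4 (chr1:132959484-133030561), the relative of Mdm2 that binds p53 and blocks its activation domain, had 185, 172 and 177 CPM in control and 100.0, 93.3 and 123 CPM in senescent libraries. All senescent values were below all controls, 1.69-fold lower on average (edgeR, log2 -0.75, SE 0.10, adjusted p = 0.00031).

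The log2 ratio of Mdm2 to Mdm4 within a library went from -1.09 ± 0.0155 to 1.60 ± 0.129 (SD, n = 3 each), a 6.44-fold shift. This is a ratio of counts, so gene length affects its level but not the shift between groups. Such ratios were compared for 5 pairs of related genes by a two-sided exact permutation test, for which 3 libraries against 3 cannot go below p = 0.1, the value every pair reached (Benjamini-Hochberg adjusted p = 0.1). Wrap53, which lies head to head with Trp53 and encodes a telomerase and Cajal body protein, fell from 18.5 ± 0.974 to 9.66 ± 1.71 CPM (SD, n = 3 each; edgeR, log2 -0.94, SE 0.13, adjusted p = 0.000398). The annotated exons of Trp53 and Wrap53 do not overlap. Where a member does overlap a gene on the other strand, as named below, their reads may be shared, since the library kit keeps strand but the sources used here do not say whether counting used it.

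Of the 9 cell cycle and arrest genes, 7 rose and 2 fell, beside 36.2% higher and 34.1% lower over all genes. Gadd45a (chr6:67035096-67037457), a stress protein that inhibits the mitotic kinase Cdk1 and takes part in repair, had 9.90, 10.2 and 10.7 CPM in control and 51.3, 53.8 and 55.3 CPM in senescent libraries. The replicates of each group lay close together, and the 5.21-fold rise was the largest among the members (edgeR, log2 2.38, SE 0.07, adjusted p = 5.93e-08). Its exons overlap those of E230016M11Rik on the other strand, with which it shared 12.4% of its 100-base windows.

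Ccng1 (chr11:40748552-40755311) encodes cyclin G1, which recruits a phosphatase to Mdm2. It had 196, 188 and 189.7 CPM in control and 657.5, 667 and 841.5 CPM in senescent libraries, a 3.78-fold rise (edgeR, log2 1.92, SE 0.10, adjusted p = 1.51e-06). Senescent replicate 3 was the highest, yet the lowest senescent library was still far above the controls. Ccng2 (chr5:93267257-93276231), the related cyclin G2 that rises in resting cells under control of FoxO factors, had 65.5, 65.9 and 62.6 CPM in control and 23.2, 22.6 and 27.8 CPM in senescent libraries. It moved the other way, 2.63-fold lower (edgeR, log2 -1.40, SE 0.09, adjusted p = 4.39e-06). The log2 ratio of Ccng1 to Ccng2 went from 1.56 ± 0.0451 to 4.88 ± 0.0479 (SD, n = 3 each), a 9.93-fold shift and the widest of the 5 pairs.

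Plk2 (chr13:110395044-110400844), a polo-like kinase of the stress response, had 146, 143 and 145 CPM in control and 403, 395 and 429 CPM in senescent libraries. All senescent libraries were above the controls, by 2.83-fold on average (edgeR, log2 1.5, SE 0.06, adjusted p = 2.22e-07). Its relative Plk3 went from 8.34 ± 0.761 to 16.4 ± 3.43 CPM (edgeR, log2 0.97, SE 0.16, adjusted p = 0.000962), just short of 2-fold. The log2 ratio of Plk2 to Plk3 moved only from 4.12 ± 0.146 to 4.67 ± 0.386 (SD, n = 3 each), and the difference of 0.55 dropped to 0.33 without senescent replicate 3. Plk3 overlaps Tctex1d4 on the opposite strand.

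The other risers of this group were smaller. The phosphatase Ptp4a3 went from 17.3 ± 2.09 to 31.7 ± 6.44 CPM, the antiproliferative factor Btg2 from 26.9 ± 0.211 to 45.9 ± 1.66 CPM, and the tyrosine phosphatase Ptpn14, a brake on the growth coactivator Yap, from 199.5 ± 1.07 to 265 ± 7.35 CPM (SD, n = 3 each). Their log2 fold changes were 0.87, 0.77 and 0.41 (edgeR, adjusted p = 0.00163, 1.19e-05 and 0.000179). Ptpn14 overlaps Gm26574 on the opposite strand.

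Gtse1, a microtubule-bound protein of the G2 and M phases that moves p53 out of the nucleus, had 41.7, 47.9 and 45.7 CPM in control and 25.7, 26.6 and 18.6 CPM in senescent libraries. It was 1.91-fold lower (edgeR, log2 -0.93, SE 0.14, adjusted p = 0.00045). All 12 proliferation markers fell by more, from log2 -1.29 for Pcna to log2 -5.94 for Mki67. Without senescent replicate 2 the log2 fold changes of Gtse1 and Wrap53 were -1.02 and -1.03, which would bring the members past 2-fold lower from 3 to 5.

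**Figure D2:**
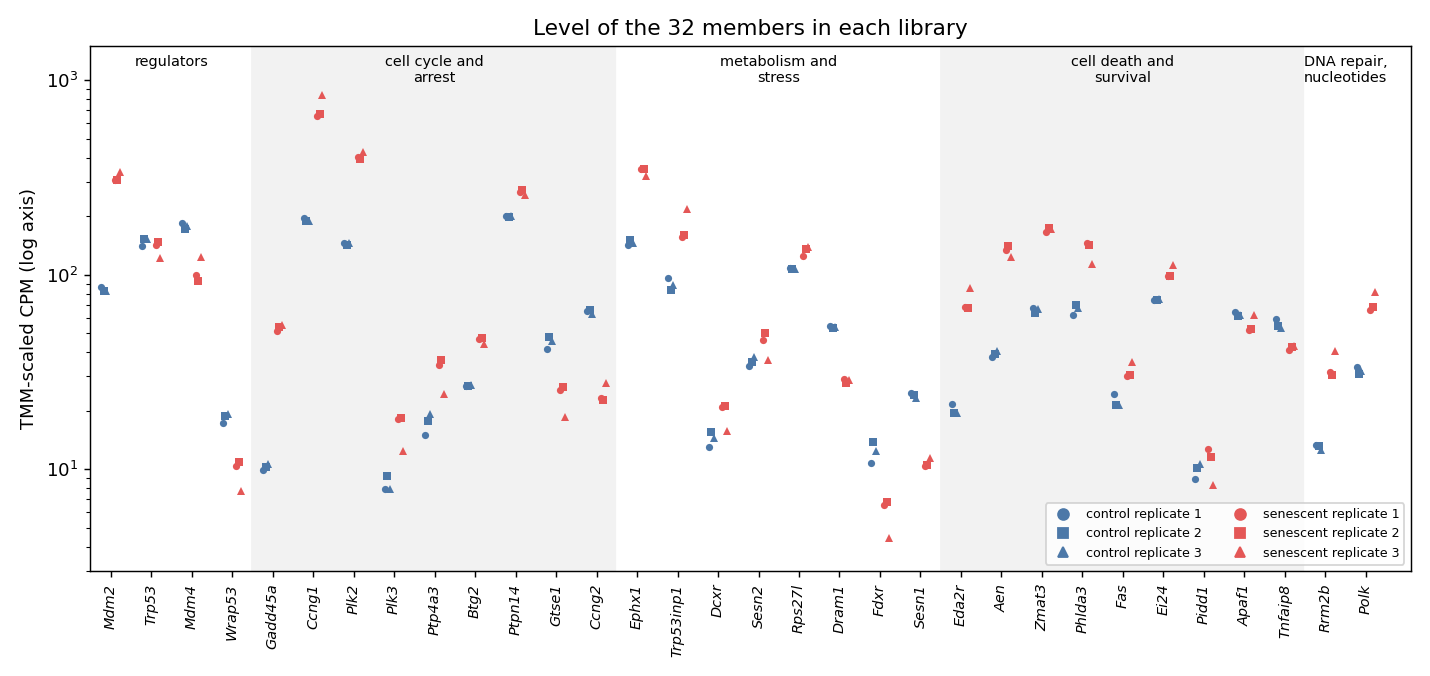
TMM-scaled CPM of each member in each of the 6 libraries on a log axis, 1 point per library, with control and senescent libraries in separate colours and members grouped by role. For 28 of the 32 members the 3 control and 3 senescent points do not overlap, beside 75.3% of all genes. Trp53, Sesn2, Apaf1 and Pidd1 are the exceptions among the members.

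Of the 9 cell death and survival genes, 6 rose, 1 fell and 2 did not pass the test. Over all genes 36.2% were higher and 34.1% lower. Eda2r (chrX:97333840-97377216), a death-linked receptor of the TNF receptor family on the X chromosome, had 21.8, 19.6 and 19.5 CPM in control and 68.1, 67.7 and 85.6 CPM in senescent libraries. Every senescent library was above the controls, by 3.64-fold (edgeR, log2 1.86, SE 0.11, adjusted p = 2.55e-06). Aen (chr7:78895854-78911209), an exonuclease that p53 induces in apoptosis, had 37.7, 39.1 and 40.5 CPM in control and 135, 141 and 123 CPM in senescent libraries. It was 3.40-fold higher with no overlap (edgeR, log2 1.77, SE 0.07, adjusted p = 3.07e-07).

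Zmat3 (chr3:32334792-32366014), a zinc finger protein that binds RNA and acts in splicing, had 67.5, 63.9 and 66.6 CPM in control and 166, 174 and 171 CPM in senescent libraries. Its senescent replicates were among the most alike of all members, and the rise was 2.58-fold (edgeR, log2 1.37, SE 0.05, adjusted p = 3.07e-07). Phlda3 (chr1:135766119-135769136), which competes with the survival kinase Akt for membrane lipids, had 62.1, 69.7 and 67.1 CPM in control and 145, 142 and 114 CPM in senescent libraries. The groups did not overlap, and at 2.02-fold it lay just inside the 2-fold threshold (edgeR, log2 1.01, SE 0.10, adjusted p = 5.18e-05), as Trp53inp1 at log2 0.99 and Plk3 at 0.97 lay just outside.

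The death receptor Fas rose from 22.3 ± 1.73 to 32.1 ± 2.94 CPM, and Ei24, a protein of the endoplasmic reticulum, from 74.5 ± 0.487 to 103 ± 7.84 CPM (SD, n = 3 each). These were log2 changes of 0.53 and 0.46 (edgeR, adjusted p = 0.00123 and 0.000421), both under 2-fold, and Ei24 overlaps Gm26787 on the opposite strand. Tnfaip8, a survival factor that TNF induces, fell from 55.6 ± 3.09 to 42.2 ± 1.00 CPM (edgeR, log2 -0.40, SE 0.06, adjusted p = 0.000683); it overlaps C030005K06Rik, on the opposite strand, with which it shared 6.46% of its 100-base windows.

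Apaf1 and Pidd1, the scaffolds of the apoptosome and of the PIDDosome, did not pass the test. Apaf1 had 64.7, 61.0 and 62.2 CPM in control and 51.8, 52.6 and 62.1 CPM in senescent libraries (edgeR, log2 -0.17, SE 0.08, adjusted p = 0.0865). In Pidd1 the values were 8.88, 10.1 and 10.7 CPM and 12.7, 11.5 and 8.31 CPM (edgeR, log2 0.13, SE 0.16, adjusted p = 0.489). In both genes senescent replicate 3 alone kept the groups from separating. Without that library Apaf1 was called lower (log2 -0.26, adjusted p = 5.83e-05) and Pidd1 higher (log2 0.30, adjusted p = 0.00527) by edgeR.

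Among the 8 metabolism and stress genes, 5 rose and 3 fell, beside 36.2% higher and 34.1% lower over all genes. Ephx1 (chr1:180976210-181020904), the microsomal epoxide hydrolase, had 143, 151 and 145.5 CPM in control and 348, 348 and 320.2 CPM in senescent libraries. It was 2.32-fold higher without overlap (edgeR, log2 1.21, SE 0.06, adjusted p = 9.17e-07), and its exons overlap Gm36961 on the same strand. Trp53inp1, which promotes p53 phosphorylation and autophagy, rose from 89.6 ± 6.15 to 178.5 ± 34.9 CPM (SD, n = 3 each; edgeR, log2 0.99, SE 0.13, adjusted p = 0.000271). Its senescent values of 156, 161 and 219 CPM were spread widely, with replicate 3 highest.

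The sestrins, which restrain the growth kinase mTORC1, moved apart. Sesn1 (chr10:41810574-41908424) had 24.6, 24 and 23.2 CPM in control and 10.4, 10.6 and 11.4 CPM in senescent libraries, 2.21-fold lower (edgeR, log2 -1.15, SE 0.07, adjusted p = 4.42e-06). Sesn2 had 34.0, 35.5 and 37.7 CPM in control and 46.2, 50.3 and 36.4 CPM in senescent libraries, with senescent replicate 3 inside the control range. Its log2 fold change of 0.31 passed narrowly (edgeR, adjusted p = 0.0436) and failed when any library except senescent replicate 3 was left out (adjusted p = 0.0744 to 0.134). The log2 ratio of Sesn1 to Sesn2 went from -0.57 ± 0.119 to -2.02 ± 0.310 (SD, n = 3 each), 2.73-fold lower.

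Fdxr (chr11:115268024-115277050), the mitochondrial reductase that passes electrons to ferredoxin, had 10.7, 13.8 and 12.4 CPM in control and 6.55, 6.78 and 4.42 CPM in senescent libraries. It was 2.09-fold lower (edgeR, log2 -1.06, SE 0.17, adjusted p = 0.000857), with senescent replicate 3 lowest. Dram1, a lysosomal membrane protein of autophagy, fell from 53.9 ± 0.511 to 28.5 ± 0.736 CPM (SD, n = 3 each; edgeR, log2 -0.92, SE 0.06, adjusted p = 3.19e-06). Dcxr, a carbonyl reductase, rose from 14.3 ± 1.26 to 19.3 ± 3.12 CPM (edgeR, log2 0.43, SE 0.13, adjusted p = 0.0199), and lost its call without control replicate 1 or 3 or senescent replicate 1 or 2 (adjusted p = 0.0587 to 0.0778).

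Rps27l, the p53-induced relative of the ribosomal protein gene Rps27, rose from 107.5 ± 0.810 to 133 ± 6.71 CPM (SD, n = 3 each). By edgeR its log2 fold change was 0.31 (SE 0.06, adjusted p = 0.00172). None of the 100-base windows of its longest transcript was shared with another gene. Rps27 itself went down from 341 ± 17.9 to 189 ± 11.4 CPM (edgeR, log2 -0.85, SE 0.07, adjusted p = 1.62e-05), but 21.3% of its windows were shared with Rps27rt and Gm17241, so its level is uncertain. The log2 ratio of Rps27l to Rps27 moved from -1.66 ± 0.0858 to -0.51 ± 0.0161 (SD, n = 3 each), a 2.22-fold shift.

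**Figure D3:**
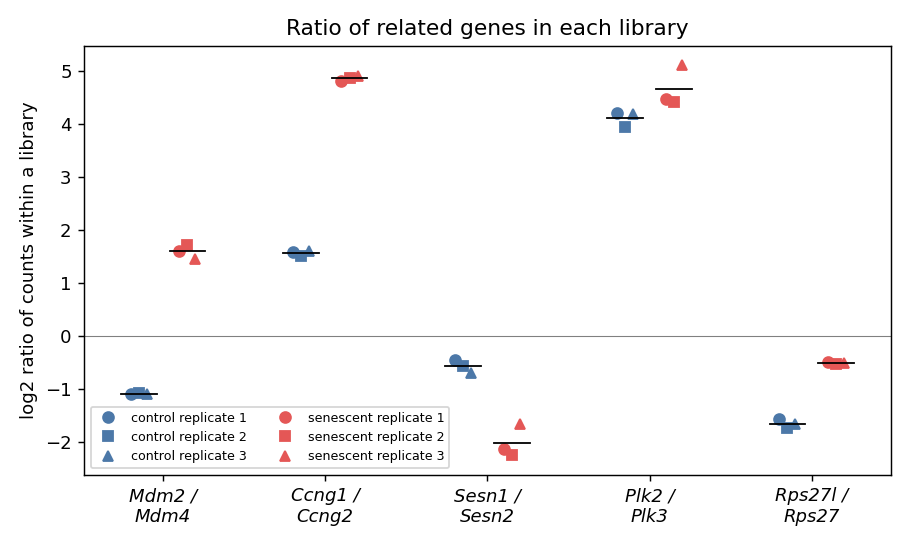
Log2 ratio of the counts of 2 related genes within each library, for 5 pairs, with 1 point per library and the group mean as a line. Control and senescent libraries do not overlap in any pair, and the shift is widest for Ccng1 over Ccng2 (3.31 on the log2 scale) and narrowest for Plk2 over Plk3 (0.55).

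Both DNA repair and nucleotide genes rose, as did 36.2% of all genes. Polk (chr13:96480689-96542485), the translesion polymerase kappa, had 33.5, 30.8 and 32.1 CPM in control and 65.7, 67.9 and 81.2 CPM in senescent libraries, 2.23-fold higher without overlap (edgeR, log2 1.16, SE 0.09, adjusted p = 1.4e-05). Rrm2b (chr15:37923952-37961318), the p53-inducible subunit of ribonucleotide reductase that supplies nucleotides outside S phase, had 13.4, 13.2 and 12.6 CPM in control and 31.5, 30.6 and 40.7 CPM in senescent libraries. It was 2.62-fold higher (edgeR, log2 1.39, SE 0.12, adjusted p = 2.22e-05), with 4.66% of its 100-base windows shared with Gm49085 or Gm8616. For Mdm4 that share was 4.18%, with Mdm4-ps.

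Levels were compared between members only after division by the gene length listed in the deposited table, as CPM per kilobase (mean ± SD, n = 3). In control cells Rps27l was highest (132 ± 0.993), followed by Ephx1 (75.0 ± 2.04), Ccng1 (54.4 ± 1.13) and Plk2 (51.6 ± 0.673). In senescent cells Ccng1 came first (206 ± 29.5), then Ephx1 (174 ± 8.33), Rps27l (163 ± 8.22) and Plk2 (146 ± 6.34). Per kilobase, every senescent library of Ccng1 lay above every one of Ephx1, with Ccng1 widely spread because replicate 3 was highest. Ephx1 and Rps27l did not differ beyond their spread. Gadd45a went from place 24 of 32 to place 8 (5.82 ± 0.217 to 30.3 ± 1.14 CPM per kilobase), and Mdm2 from place 10 to place 6 (16.5 ± 0.439 to 62.6 ± 3.73). Trp53 was at places 6 and 7, with 36.7 ± 1.76 and 33.8 ± 3.28. The lowest per length were Rrm2b in control cells (2.03 ± 0.0644) and Fdxr in senescent cells (2.11 ± 0.463).

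The deviation of senescent replicate 3 followed the base composition of the members. Across the 32 members, the log2 ratio of replicate 3 to the mean of the other senescent replicates had a Pearson correlation with the GC content of the gene's longest transcript of -0.93 (Spearman -0.92), and across 9931 tested genes of like abundance -0.84 (Spearman -0.87). These are correlations over genes of 1 library, given as a description. Of the 17 members with GC above 49.3%, the median of those genes, 14 were lower in replicate 3 than in its group, while all 15 others were higher. The extremes were Fdxr (-0.59) and Trp53inp1 (0.47), and GC ran from 38.8% to 62.6% over the members. The members' log2 fold changes were only weakly related to GC (Pearson -0.19). With this library left out, 22 members were higher and 9 lower, including each of the 29 called with it.

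**Figure D4:**
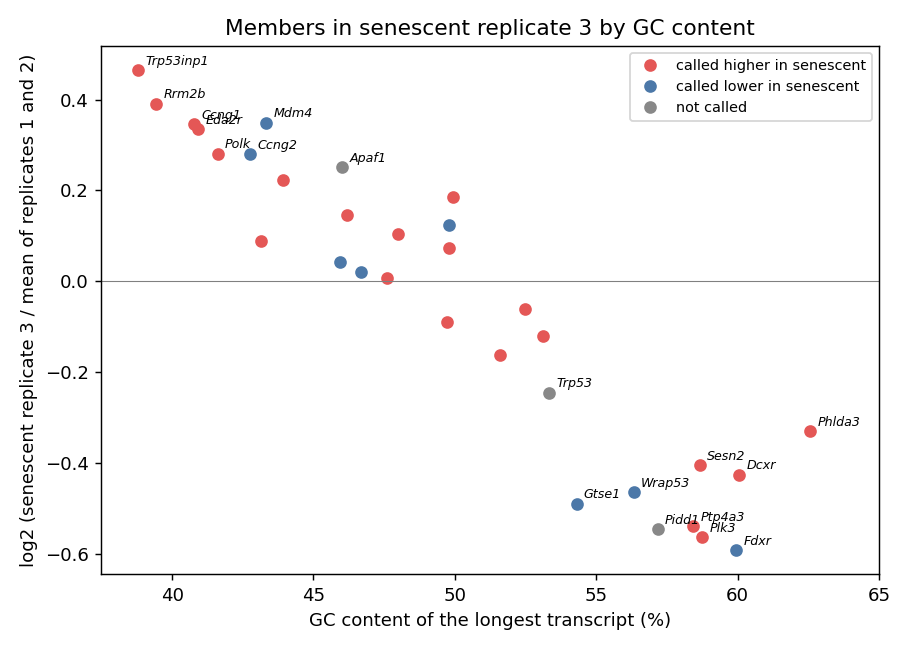
GC content of the longest transcript in percent on the x axis against the log2 ratio of senescent replicate 3 to the mean of senescent replicates 1 and 2 on the y axis, 1 point per member, coloured by the call between senescent and control cells. The points fall from Trp53inp1 (0.47) at the low GC end to values near Fdxr (-0.59) at the high GC end.

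A list of 77 other p53 pathway genes gives the surroundings of the members, and 76 of them could be tested, Trp73 being the exception. By edgeR's test 30 were higher (39.5%, against 36.2% of all genes), 35 lower (46.1%, against 34.1%) and 11 not called, with a median log2 fold change of 0.08. Changes of more than 2-fold were called for 15 genes upward (19.7%, against 17.8% of all genes) and 22 downward (28.9%, against 12.3%). Cdkn1a, the cyclin kinase inhibitor p21 and the classic arrest target, rose from 123 ± 2.01 to 619.5 ± 16.3 CPM (SD, n = 3 each; edgeR, log2 2.33, SE 0.05, adjusted p = 2.54e-08). That log2 change is close to that of Gadd45a among the members, and above that of Mdm2. Cdkn2a, which encodes the inhibitor p16 and the Mdm2 antagonist Arf, rose from 1.20 ± 0.0738 to 4.50 ± 1.5 CPM (edgeR, log2 1.90, SE 0.27, adjusted p = 0.000398), and the counts do not separate its products.

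The death genes of the list did not move as one. Pmaip1, the BH3 protein Noxa, rose from 1.19 ± 0.171 to 51.2 ± 6.08 CPM (edgeR, log2 5.42, SE 0.14, adjusted p = 4.31e-08), and Perp, a membrane protein of cell junctions, from 14.6 ± 0.465 to 71.2 ± 7.5 CPM (edgeR, log2 2.29, SE 0.09, adjusted p = 2.95e-07). Bbc3, the BH3 protein Puma, fell from 5.52 ± 1.25 to 2.84 ± 0.998 CPM (edgeR, log2 -0.98, SE 0.28, adjusted p = 0.0147), a call lost without control replicate 2 (adjusted p = 0.059) and without the filter on low counts (adjusted p = 0.0508). Bax, the pore former of mitochondrial death, had 63.4, 70.7 and 69.5 CPM in control and 94.5, 98.0 and 58.9 CPM in senescent libraries and was not called (edgeR, log2 0.30, SE 0.18, adjusted p = 0.16). Here too senescent replicate 3 set the overlap, lying below all controls while its group lay above them, and without it the log2 fold change was 0.51 (edgeR, adjusted p = 5.68e-08).

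Of 7 repair targets 5 fell and 1 rose, beside 34.1% lower and 36.2% higher over all genes. Ddb2 went from 14.2 ± 0.554 to 4.57 ± 0.363 CPM and Xpc, the 1 that rose, from 15.4 ± 0.345 to 27.2 ± 1.73 CPM (edgeR, log2 -1.64 and 0.82, adjusted p = 1.94e-06 and 3.07e-05). The 5 that fell differ in direction from the members Polk and Rrm2b, which both rose. The checkpoint kinase Chek1 fell from 17.3 ± 0.519 to 5.32 ± 0.765 CPM (edgeR, log2 -1.69, SE 0.11, adjusted p = 5.7e-06), and Ppm1d, the phosphatase that turns the response off, from 16.4 ± 0.3 to 11.7 ± 1.43 CPM (edgeR, log2 -0.48, SE 0.10, adjusted p = 0.0028). Gdf15, a secreted stress hormone, was low in both groups and went from 0.200 ± 0.0372 to 0.945 ± 0.502 CPM (edgeR, log2 2.18, SE 0.52, adjusted p = 0.006).

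The largest increases on the list were those of the cytokine Lif (log2 6.03), Pmaip1 and the arrest gene Rprm (log2 4.01), and the largest decreases those of Ccnb1 (log2 -5.18), Cdc25c (log2 -4.65) and Cdk1 (log2 -3.60), the cyclin, phosphatase and kinase that drive mitosis (edgeR, adjusted p = 1.71e-08, 4.14e-06, 8.43e-09, 7.32e-08 and 1.28e-08 for the 5 genes other than Pmaip1). Ccnb1 and Cdk1 are also among the 12 proliferation markers, all of which fell by more than the member Gtse1 (log2 -0.93).

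**Figure D5:**
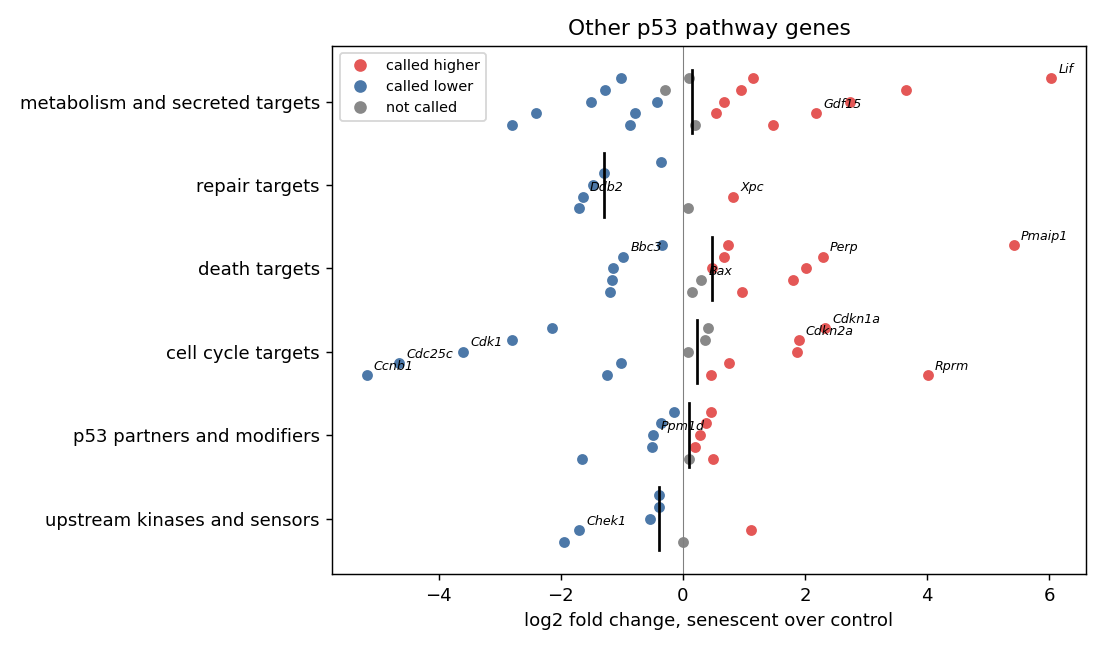
Log2 fold change of senescent over control cells for the tested genes of the list of other p53 pathway genes by group, 1 point per gene coloured by its call, with a vertical line at each group's median and the named genes labelled. Every group has points on both sides of 0, and the values run from Ccnb1 (-5.18) to Lif (6.03).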

How the data were processed

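The authors isolated RNA with TRIzol, prepared libraries from 200 ng of total RNA with a stranded poly(A) kit, sequenced them as paired 100-base reads, aligned these with STAR to mm10 and counted them per gene with Subread. The deposited values are raw counts, and the strand setting and the treatment of reads with several matches are not given in the sources used here. Genes were filtered with filterByExpr, scaled by TMM and compared across the 6 libraries, with group as the only term, by the quasi-likelihood test of edgeR 4.0.16 under R 4.3.3, with Benjamini-Hochberg adjustment over 17589 genes, and calls were made at an adjusted p under 0.05. Calls past 2-fold used the rule in the study's methods, in which the unadjusted p is under 0.05 and the log2 change over 1 in size. The study's results give a different p cutoff for its own list. The fit was tried on simulated counts in which only 200 genes changed, whereas 70.3% of the genes tested were called here. That trial does not cover scaling or false calls under so broad a change. Values after ± are SDs over the libraries of a group, and each SE of a log2 fold change was derived from edgeR's fit. The value of 3 counts covers counting error only. The members and the lists were chosen with earlier results of these data known. Values per library are given for Trp53, Mdm2, Mdm4 and all members with adjusted p under 0.05 and log2 change over 1 in size. Of the other pathway genes, 11 were named whatever their values, with the 3 largest increases and decreases. Alternatives were other size factors, other filters, DESeq2 1.42.0, a replicate block, leaving out each library and, chosen after the data were seen, a GC term in each library (loess span 0.3). Of the same-numbered libraries only those of replicate 2 deviated together (correlation of deviations -0.71, 0.57 and -0.53). Libraries of different numbers were related as strongly, control replicate 1 at 0.79 with senescent replicate 3 and at -0.75 with senescent replicate 2. The numbers were therefore not taken as pairs. Windows of 100 bases of each member's longest transcript were searched for in the transcripts of all other genes, with exon overlaps taken from the annotation. Of the 43346 genes, 59 names occur more than once, none of them a member's.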

Additional observations from a re-analysis of the deposited data

How the results depend on the processing

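Over 13 alternatives to the processing, 401 of 416 member values kept their direction and their side of the threshold, and 27 of the 32 members did so throughout. The exceptions were Trp53, Sesn2, Dcxr, Apaf1 and Pidd1. RLE size factors, library size alone, both other filters and DESeq2 each gave 21 members higher and 8 lower, as in the report, although DESeq2, library size alone and the absence of a filter moved the median of all genes to 0.14, 0.09 and 0.31 on the log2 scale. With the replicate block 20 members were higher and 8 lower, Sesn2 being lost (edgeR, adjusted p = 0.0734). With a GC term in each library 22 were higher and 9 lower, the members' median log2 fold change was 0.64 in place of 0.49, Apaf1 (log2 -0.26, adjusted p = 6.88e-05) and Pidd1 (log2 0.35, adjusted p = 0.00146) passed edgeR's test, and Trp53 turned from -0.12 to 0.0027 (adjusted p = 0.948). Leaving out each library in turn gave 19 to 22 members higher, 8 to 9 lower, 11 to 13 more than 2-fold higher and 2 to 5 more than 2-fold lower. The cause of these changes was not tested. With 3 libraries a group, Dcxr and Sesn2 lie at the limit of what the spread allows.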

Other observations

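The genes given here are further ones of the list of other p53 pathway genes and were picked after their values were seen. The initiator caspases Casp9 and Casp8 fell from 30.3 ± 0.487 to 13.2 ± 0.903 CPM and from 49.1 ± 1.76 to 38.6 ± 2.95 CPM (SD, n = 3 each), by log2 -1.20 and -0.35 (edgeR, adjusted p = 3.81e-06 and 0.00315). In the same cells Tnfrsf26, a mouse receptor of the TNF receptor family, rose from 42.1 ± 1.02 to 147 ± 14.3 CPM (edgeR, log2 1.80, SE 0.08, adjusted p = 5.67e-07), beside Eda2r and Fas among the members. Upstream, 5 of 7 kinases and sensors fell and 1 rose, beside 34.1% lower and 36.2% higher over all genes. Chek2 was among those that fell, from 19.9 ± 1.01 to 5.18 ± 0.171 CPM (edgeR, log2 -1.94, SE 0.08, adjusted p = 3.73e-07).

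Of the 20 metabolic and secreted targets, 9 rose, 8 fell and 3 were not called, beside 36.2% higher and 34.1% lower over all genes. Tigar, a phosphatase that slows glycolysis, rose from 8.42 ± 0.359 to 18.6 ± 0.725 CPM, and Slc19a2, a thiamine transporter, from 25.5 ± 0.955 to 71.3 ± 0.576 CPM, by log2 1.14 and 1.48 (edgeR, adjusted p = 5.48e-06 and 2.67e-07). Steap3, a ferrireductase of iron uptake, fell from 262 ± 13.4 to 49.7 ± 7.25 CPM (edgeR, log2 -2.40, SE 0.11, adjusted p = 7.77e-07).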
